A study of Homo sapiens with 4 samples.

Results

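Aminoacyl-tRNA synthetases are the enzymes that load each amino acid onto its own tRNA, and 38 genes of this machinery were described among the 29286 genes listed for HCT116 cells with a WDR43 hairpin and with a control hairpin. They were taken by symbol: 19 encode cytosolic synthetases, with symbols that end in 1 or are FARSA and FARSB, 16 encode mitochondrial synthetases, with symbols that end in 2, and 3 encode scaffold proteins of the multi-synthetase complex, AIMP1, AIMP2 and EEF1E1. The rule goes by symbol alone, but members and lists were chosen with earlier results of these data known. All 38 were matched by identifier, and all 38 passed the filter on low values. The genes for aspartate were not in the set and are not used here.

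HCT116 is an established human colorectal carcinoma line. Cells received a short hairpin against WDR43 by lentivirus (shWDR43, genotype WDR43 knockdown) or a control hairpin (shNC, shNC2 in the titles, genotype Control). Infection lasted 48 h, puromycin selection of both groups followed over 3 days, and 2 RNA-seq libraries were made per group. The labels name 1 hairpin per group and do not tell whether the replicates are separate cultures. P-values thus reflect the scatter among 4 libraries alone, and this scatter may be technical. The files used here list no value for WDR43, a nucleolar protein gene of small-subunit assembly, so the knockdown label could not be checked against its target.

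Cytosol and mitochondria translate with separate sets of synthetases, nearly all encoded by separate nuclear genes. In the cytosol several of these enzymes are held together with the scaffold proteins in the multi-synthetase complex. Many cytosolic synthetase genes are known targets of ATF4, the transcription factor made when amino acids run short or eIF2 is phosphorylated. GARS1 and KARS1 are exceptions to the separation, since each encodes the enzyme of both compartments, while EPRS1 joins the glutamate and proline enzymes in a single chain.

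Levels are FPKM, fragments scaled by transcript length and library total, so they can be compared between genes. They summed to 402393 to 411816 in shWDR43 libraries and to 393582 to 413758 in shNC libraries, and read depth is unknown. Epithelial markers fixed for the line were mixed: 6 of 9 listed (EPCAM, CDH1, KRT8, KRT18, KRT19, CDX2) were above 1 FPKM in every library, while KRT20, VIL1 and LGALS4 were below 1 FPKM in every library. Of the other-cell markers COL1A1 and VIM were above 1 FPKM throughout and COL3A1 and PECAM1 below it. The epithelial list summed to 2502 and 2444 FPKM in shWDR43 and to 1746 and 2067 FPKM in shNC, the other-cell list to 9.80 and 7.79 against 10.99 and 10.3 FPKM. Transcripts of the mitochondrial genome made up 24.6% and 23.9% of summed FPKM in shWDR43 and 26.8% and 25.5% in shNC. The part of these shifts in the results was not tested.

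Of the 19 cytosolic synthetase genes 7 were lower and 1 was higher in shWDR43, whereas 0 of the 16 mitochondrial synthetase genes and 0 of the 3 scaffold genes passed the test (limma on log2 of FPKM + 1, adjusted p below 0.05 over 13303 genes). The genes that fell were AARS1, CARS1, GARS1, SARS1, TARS1, YARS1 and MARS1, and the gene that rose was FARSB. At an unadjusted p below 0.05, 8 cytosolic genes were lower and 4 higher, 0 mitochondrial genes were lower and 4 higher, and 0 scaffold genes were on either side. The shares over all tested genes at that level were 8.63% lower and 17.8% higher. Among tested genes with a mean of 1 to 10 FPKM, where these 4 mitochondrial genes lie, they were 8.09% and 13.7%. Whether 4 of 16 mitochondrial genes departs from these shares was not tested. After adjustment, over all tested genes 1.47% fell and 4.79% rose, 6.26% in either direction (637 higher and 196 lower, against 194 and 182 under upper-quartile scaling), so 36.8% of cytosolic synthetases fell against a background of 1.47%, and 5.26% rose against 4.79%. Among the 5191 tested genes with a mean of 10 to 200 FPKM, a range that holds all cytosolic synthetases but FARSB, 2.12% fell and 7.55% rose. Groups that do not overlap are common in these data, at 21.5% of tested genes on the lower and 35.8% on the higher side, and are given below as a description. None of the 8 calls was made when the filter on low values was dropped.

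**Figure D1:**
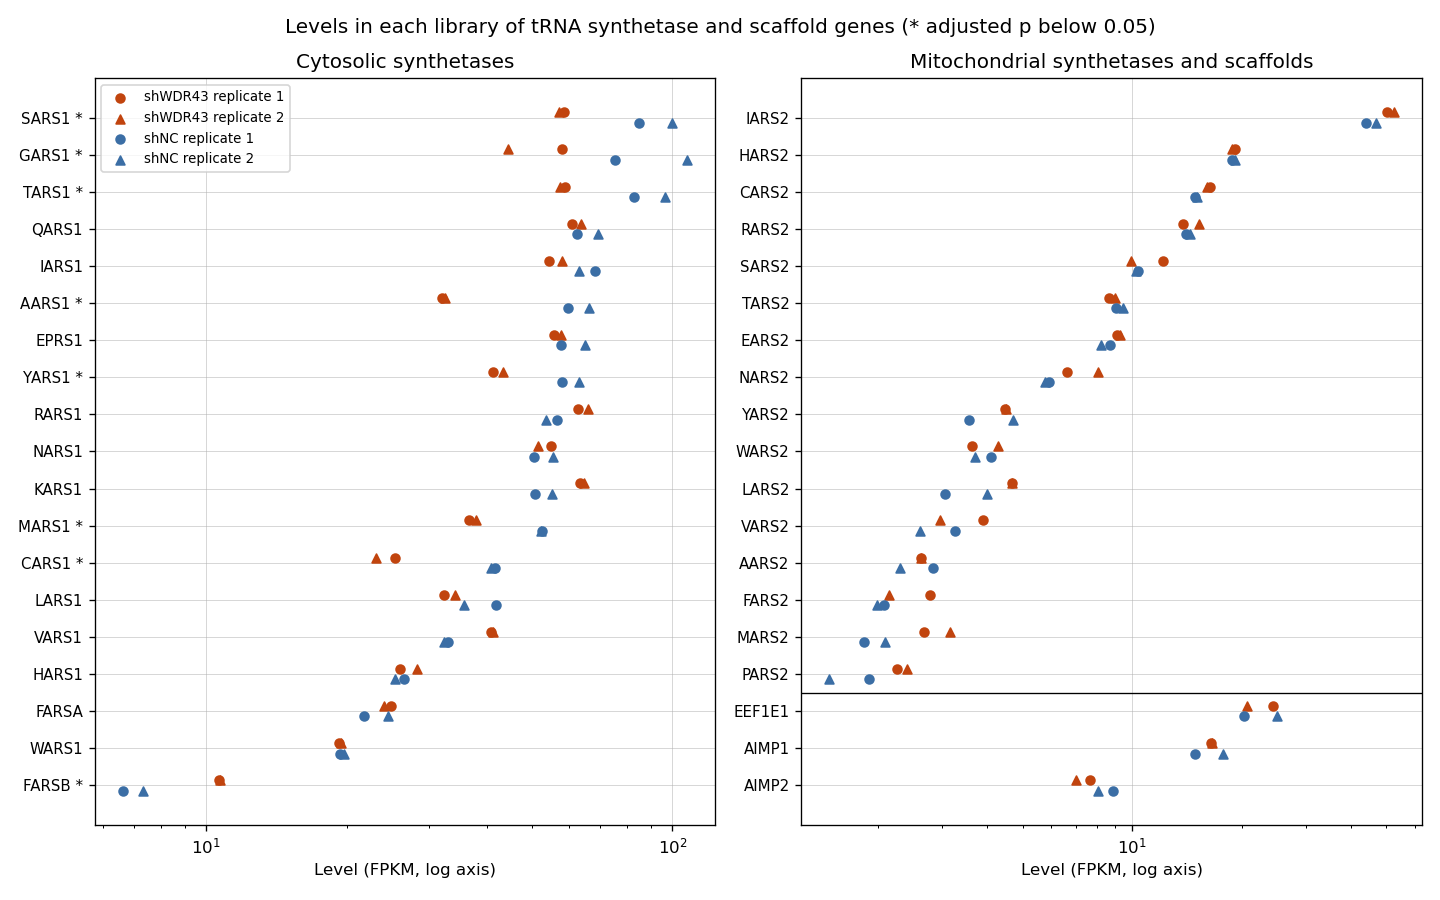
Level in each library (FPKM, log axis) of the 19 cytosolic synthetase genes (left) and of the 16 mitochondrial synthetase and 3 scaffold genes (right, below the line), ordered by their mean in shNC. Orange points are shWDR43 and blue points shNC libraries, circles replicate 1 and triangles replicate 2, and an asterisk marks an adjusted p below 0.05. The orange points of SARS1, GARS1, TARS1, AARS1, YARS1, MARS1 and CARS1 lie left of the blue ones, while most mitochondrial genes have points that lie close together or orange points to the right.

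AARS1, the alanyl-tRNA synthetase gene, had the lowest log2 change of the set over all 4 libraries. It stood at 32.1 and 32.4 FPKM in shWDR43 and at 59.6 and 66.4 FPKM in shNC. The groups were far apart relative to their spread, with a ratio of means of 0.512 and a log2 change of -0.94 ± 0.09 (SE, n = 2 per group; adjusted p = 0.00418, limma). The gene lies on the minus strand of chromosome 16 at 70252295 to 70289543 (GRCh38, GENCODE release 29, as for all genes here). CARS1, the cysteinyl-tRNA synthetase gene (chromosome 11, 3000922 to 3057613, minus strand), was at 25.4 and 23.1 FPKM in shWDR43 against 41.7 and 40.8 FPKM in shNC, a log2 change of -0.75 ± 0.08 (adjusted p = 0.00942, limma). In both genes the lowest shNC library was well above the highest shWDR43 library, and both calls held with any library left out.

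SARS1 and TARS1, which encode the seryl and threonyl enzymes, were among the 3 most abundant cytosolic synthetases of the control cells and fell by similar amounts. SARS1 (chromosome 1, 109213918 to 109238169, plus strand) was at 58.7 and 57.3 FPKM in shWDR43 and at 84.8 and 99.8 FPKM in shNC, a log2 change of -0.66 ± 0.10 (adjusted p = 0.0200, limma). TARS1 (chromosome 5, 33440696 to 33469539, plus strand) was at 58.8 and 57.4 FPKM in shWDR43 and at 82.8 and 96.5 FPKM in shNC, a log2 change of -0.61 ± 0.10 (adjusted p = 0.0220, limma). The shWDR43 libraries were nearly equal in each gene, the spread lay in shNC, and both calls held with any library left out.

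GARS1, YARS1 and MARS1 also passed the test, but each lost its call without a particular library. GARS1 (chromosome 7, 30594681 to 30634033, plus strand), whose glycyl enzyme serves cytosol and mitochondria, was at 58.0 and 44.3 FPKM in shWDR43 and at 75.4 and 108 FPKM in shNC. Its groups did not overlap, yet its replicates were the most scattered of the genes that fell, and its log2 change of -0.82 ± 0.18 (adjusted p = 0.0439, limma) became -0.56 (adjusted p = 0.101) without shNC replicate 2. It was -1.07 without shNC replicate 1 and -1.01 without shWDR43 replicate 1, below AARS1 at -1.02 and -0.93 in the same fits. GARS1 also missed the threshold under median-ratio scaling (adjusted p = 0.0605) and upper-quartile scaling (adjusted p = 0.0584).

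YARS1, the tyrosyl-tRNA synthetase gene (chromosome 1, 32775237 to 32818153, minus strand), was at 41.3 and 43.2 FPKM in shWDR43 and at 58.0 and 63.1 FPKM in shNC, a log2 change of -0.51 ± 0.08 (adjusted p = 0.0244, limma; 0.0987 without shWDR43 replicate 1). Its exons share 396 bases with S100PBP on the opposite strand, a gene with a log2 difference of -0.29 (adjusted p = 0.102). MARS1, the methionyl-tRNA synthetase gene (chromosome 12, 57475445 to 57517569, plus strand), was at 36.6 and 37.97 FPKM in shWDR43 and at 52.5 and 52.2 FPKM in shNC, a log2 change of -0.48 ± 0.08 (adjusted p = 0.0230, limma). The MARS1 call was lost without shWDR43 replicate 1 (adjusted p = 0.117) or replicate 2 (adjusted p = 0.0603). Exons of MARS1 share 355 bases with DDIT3, the gene of the stress factor CHOP, on the opposite strand, which fell by 1.00 on the log2 scale (adjusted p = 0.0159). No source used here says if reads were assigned by strand, which makes the levels of MARS1 and YARS1 uncertain, as is that of GARS1, which shares 99 exonic bases with GARS1-DT on the opposite strand. Of all 38 genes 14 had exons in common with another gene at a mean of 1 FPKM or more, 13 of them with a gene on the opposite strand, and AARS1, CARS1, SARS1, TARS1 and FARSB were not among the 14. Besides GARS1, YARS1 and MARS1 these were HARS1, KARS1, WARS1, CARS2, EARS2, HARS2, SARS2, VARS2, WARS2, AIMP1 and AIMP2, all with a gene on the opposite strand except VARS2, whose partner lies on the same strand.

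FARSB was the cytosolic gene that rose. It encodes the beta subunit of phenylalanyl-tRNA synthetase, which works as a complex with the alpha subunit from FARSA. FARSB (chromosome 2, 222570536 to 222656337, minus strand) was at 10.7 and 10.7 FPKM in shWDR43 and at 6.62 and 7.30 FPKM in shNC, a log2 change of 0.55 ± 0.09 (adjusted p = 0.0263, limma), and remained the least abundant cytosolic member in both groups. Its call was lost without shWDR43 replicate 1 (adjusted p = 0.0543) or replicate 2 (adjusted p = 0.0513). FARSA was at 24.9 and 24.0 FPKM in shWDR43 and at 21.8 and 24.5 FPKM in shNC, groups that overlapped, with a log2 difference of 0.07 (95% interval -0.13 to 0.28, adjusted p = 0.636, limma).

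The other 10 cytosolic genes did not pass and lay on both sides of 0. VARS1, for valine, came nearest, at 40.7 and 41.2 FPKM in shWDR43 and 33.0 and 32.3 FPKM in shNC, a log2 difference of 0.32 ± 0.08 (adjusted p = 0.0522, limma), with adjusted p from 0.0211 to 0.342 when a library was left out. KARS1, whose lysyl enzyme serves both compartments, was at 63.5 and 64.5 FPKM in shWDR43 and at 50.7 and 55.1 FPKM in shNC, a log2 difference of 0.27 (adjusted p = 0.0909, limma; 0.0137 to 0.495 with a library left out). The 2 genes with a product in both compartments thus had opposite signs. RARS1, for arginine, was at 62.9 and 65.8 against 56.7 and 53.5 FPKM, with its log2 value higher by 0.22 (adjusted p = 0.137, limma; 0.0433 to 0.675 with a library left out). IARS1, for isoleucine, was at 54.2 and 58.0 FPKM in shWDR43 and at 68.4 and 63.2 FPKM in shNC, and LARS1, for leucine, at 32.4 and 34.2 against 41.8 and 35.8 FPKM. Neither pair of groups overlapped, with log2 differences of -0.22 and -0.21 (adjusted p = 0.148 and 0.212, limma). Without shNC replicate 2 they were -0.28 and -0.32 (adjusted p = 0.0311 and 0.0221), and without shNC replicate 1 they were -0.17 and -0.10 (adjusted p = 0.148 and 0.378). Leaving out either shNC library raised the calls over all genes as well, to 1229 higher and 533 lower without replicate 1 and to 1802 and 784 without replicate 2, against 637 and 196 with all libraries. EPRS1, QARS1, WARS1, NARS1 and HARS1 lay between -0.11 and 0.06, and the sign of NARS1 turned under median-ratio and upper-quartile scaling and that of HARS1 under upper-quartile scaling.

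**Figure D2:**
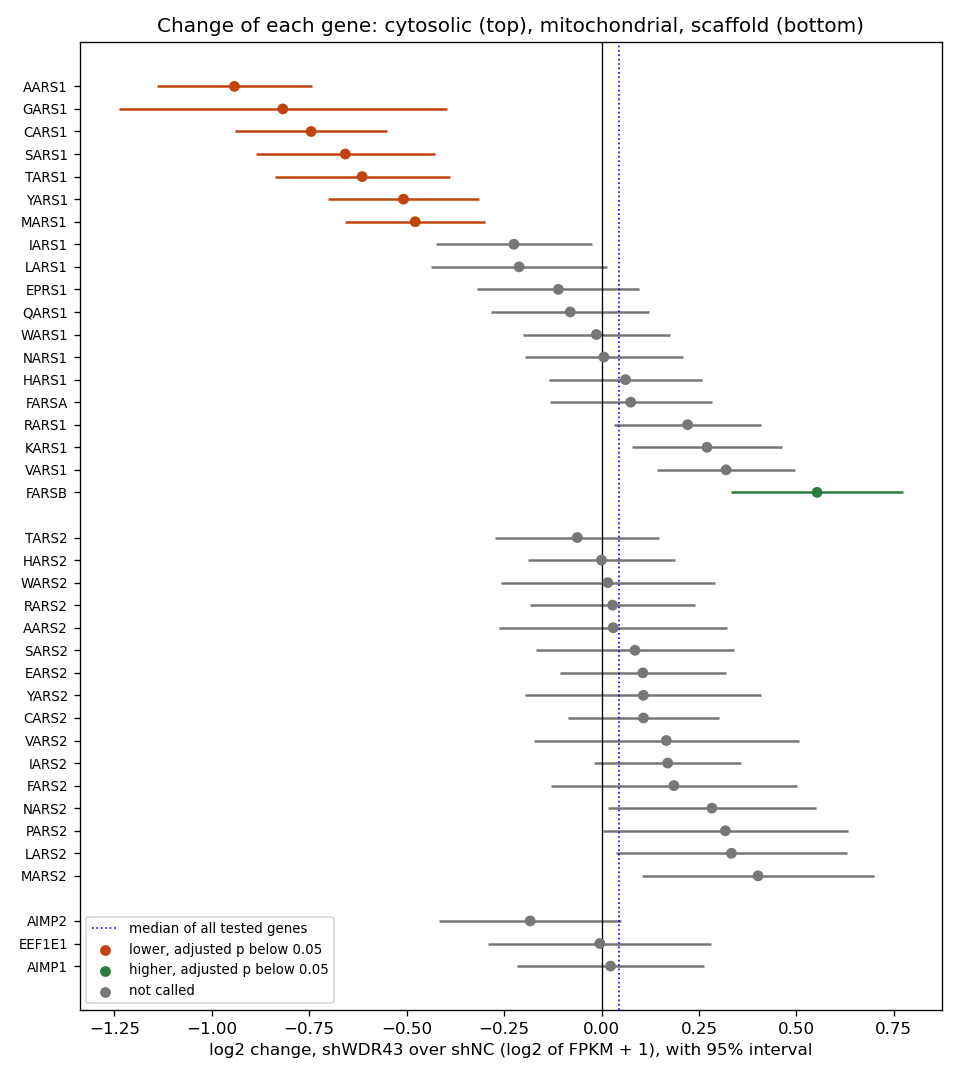
Log2 change of each gene, shWDR43 over shNC, on the log2(FPKM + 1) scale (points) with its 95% interval from limma (lines), for cytosolic synthetases (top), mitochondrial synthetases (middle) and scaffold genes (bottom). Orange marks genes lower and green genes higher at an adjusted p below 0.05, grey the rest, and the dotted line the median of all tested genes (0.05). The 7 orange genes lie between -0.94 and -0.48, below every mitochondrial gene.

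With these changes the order of levels among cytosolic synthetases differed between the groups. SARS1 (92.3 ± 10.5 FPKM, mean ± SD, n = 2), GARS1 (91.5 ± 22.8 FPKM) and TARS1 (89.7 ± 9.69 FPKM) led in shNC and did not differ from each other beyond their spread. In shWDR43 the leading genes were RARS1 (64.4 ± 2.07 FPKM), KARS1 (64.0 ± 0.718 FPKM) and QARS1 (62.2 ± 1.94 FPKM), again within their spread of each other, while GARS1 was 9th and AARS1, the 6th in shNC, was 14th. Together the cytosolic genes summed to 817 and 815 FPKM in shWDR43 and to 950.5 and 1033 FPKM in shNC. The mitochondrial genes summed to 163 and 166 FPKM in shWDR43 and to 148 and 152 FPKM in shNC, and the scaffold genes to 48.6 and 44.3 against 44.1 and 50.8 FPKM. The cytosolic sum was thus lower and the mitochondrial sum higher in both shWDR43 libraries than in either shNC library, and the scaffold sums overlapped.

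Members were also sorted by 3 properties taken from textbook knowledge, in lists chosen with earlier results of these data known. Of 13 cytosolic genes known as ATF4 targets 7 fell, 0 rose and 6 were not called, with a median log2 change of -0.48. Of the other 6 cytosolic genes 0 fell, 1 rose and 5 were not called, with a median of 0.15. Over all tested genes 1.47% fell and 4.79% rose, with a median of 0.05. The 7 that fell were thus all on the ATF4 list, which was set up with earlier results of these data known, so this split is not independent evidence. ATF4 itself was at 124 and 109 FPKM in shWDR43 and at 144 and 177 FPKM in shNC, groups that did not overlap, with a log2 difference of -0.46 ± 0.13 short of the threshold (adjusted p = 0.0715, limma). It passed without shNC replicate 1 (log2 change -0.61, adjusted p = 0.0110) or replicate 2 (-0.30, adjusted p = 0.0461), and not without shWDR43 replicate 1 (-0.55, adjusted p = 0.125) or replicate 2 (-0.36, adjusted p = 0.413).

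Membership of the multi-synthetase complex gave another split. Of its 10 members in the set, 7 enzymes and 3 scaffold proteins, MARS1 alone fell and 0 rose, with a median log2 change of -0.10. Of the 12 cytosolic synthetases outside it 6 fell and 1 rose, with a median of -0.26, and the difference between these groups was not tested. Of the scaffold genes AIMP1 and EEF1E1 had overlapping groups. AIMP1 was at 16.5 and 16.6 FPKM in shWDR43 and 14.9 and 17.8 FPKM in shNC, and EEF1E1, which encodes AIMP3, at 24.4 and 20.7 against 20.3 and 25.0 FPKM. AIMP2 was at 7.64 and 7.01 FPKM in shWDR43 and at 8.87 and 8.04 FPKM in shNC, groups that did not overlap but with a log2 difference of -0.18 (95% interval -0.42 to 0.05, adjusted p = 0.289, limma). AIMP1 shares exonic bases with TBCK and AIMP2 with EIF2AK1 on the opposite strand. By structural class, which depends on the fold of the catalytic domain, 3 of 9 class I genes fell and 0 rose. Of 9 class II genes 4 fell and 1 rose, with FARSA and FARSB, the subunits of the same enzyme, counted apart. EPRS1, which joins an enzyme of each class, was left out of this count. Beside these counts by complex and class, 1.47% of all tested genes fell and 4.79% rose. The difference between the classes was not tested.

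The promoters of the genes that fell were searched for TGATGNAA, the core of the response element bound by ATF4 with C/EBP factors, on both strands. RefSeq windows (GRCh38.p14) from 250 bases before to 50 bases after the transcript start were at hand for 33 of the 38 genes, and not for AARS2, YARS1, VARS1, VARS2 and LARS1. The sequences below are the 30 bases around each match, 5′ to 3′ on the strand of the gene, with the match in capitals (TTNCATCA where it lies on the other strand), and are shown because matches were found in most promoters of the genes that fell.
AARS1: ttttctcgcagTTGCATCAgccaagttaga
CARS1: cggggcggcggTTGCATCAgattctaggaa
TARS1: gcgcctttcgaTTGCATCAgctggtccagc
MARS1: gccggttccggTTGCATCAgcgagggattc
GARS1: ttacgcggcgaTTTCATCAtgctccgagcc
IARS1: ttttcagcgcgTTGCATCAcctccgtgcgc
NARS1: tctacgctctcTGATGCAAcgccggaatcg
YARS2: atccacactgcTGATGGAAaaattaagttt

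A match was present for 5 of the 6 genes that fell and had a window (AARS1, CARS1, TARS1, MARS1 and GARS1, SARS1 being the exception). It was also present for 2 of 9 cytosolic genes that were not called (IARS1 and NARS1), and not for FARSB. All cytosolic genes with a match are on the ATF4 list, which was set up with earlier results of these data known. EPRS1 and WARS1, on that list and not called, had a window without a match. The motif counts thus repeat that split in part and are not independent evidence. Of 14 mitochondrial genes 1 had a match (YARS2), and of 3 scaffold genes 0 did. Over all 35116 windows 3.62% held the motif, and by gene symbol 4.46% of 27305 did. The same 8 letters TTGCATCA stood in AARS1, CARS1, TARS1, MARS1 and IARS1, and on the other strand in NARS1, whereas the match of GARS1 differed in the free base. The matches began 2 bases before the RefSeq start in CARS1, 4 in MARS1, 13 in IARS1, 33 in GARS1, 187 in AARS1 and 197 in YARS2, and at base 3 of the transcript in TARS1 and base 15 in NARS1. RefSeq starts differ from the GENCODE gene positions given above. The MARS1 match, at 57488064 to 57488071, thus lies well inside MARS1 as placed by GENCODE, which starts at 57475445. The matches of TARS1, GARS1, CARS1, IARS1 and NARS1 also lie inside their genes as placed by GENCODE. Only those of AARS1 and YARS2 lie before the GENCODE start. The 30-base stretches printed above lie at chr16:70289675-70289704 (AARS1, minus strand), chr11:3057407-3057436 (CARS1, minus), chr5:33440956-33440985 (TARS1, plus), chr12:57488053-57488082 (MARS1, plus) and chr7:30594834-30594863 (GARS1, plus). The stretches of the genes without a call lie at chr9:92293692-92293721 (IARS1, minus), chr18:57621804-57621833 (NARS1, minus) and chr12:32756076-32756105 (YARS2, minus). The E-box CACGTG, bound by MYC among others and not overlapping in letters with TGATGNAA, was in 0 of the 6 windowed genes that fell. It was in IARS1, in the mitochondrial genes CARS2, EARS2 and MARS2 and in AIMP2, against 7.26% of all windows and 8.77% by gene symbol. A match is a run of letters and not evidence of binding, and IARS1 and NARS1 held the motif without passing the test.

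The start of AARS1 lies 120 bases from that of DDX19B, an RNA helicase gene on the opposite strand. The TGATGNAA match of AARS1 lies past the DDX19B start, inside that gene. DDX19B was at 8.10 and 6.47 FPKM in shWDR43 and at 9.62 and 10.1 FPKM in shNC, groups that did not overlap, with a log2 difference of -0.40 (adjusted p = 0.0830, limma). HARS1 and HARS2 overlap at their starts, with 437 exonic bases in common on opposite strands. HARS1 was at 26.1 and 28.3 FPKM in shWDR43 and at 26.5 and 25.5 FPKM in shNC, and HARS2 at 19.2 and 18.9 against 18.8 and 19.2 FPKM, so the groups overlapped in both genes.

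The mitochondrial synthetases stood at lower levels, and none passed the test. Their mean levels ran from 2.33 (PARS2) to 51.3 FPKM (IARS2) in shWDR43 and from 1.68 (PARS2) to 45.5 FPKM (IARS2) in shNC, with medians of 6.01 and 4.98 FPKM, beside cytosolic medians of 42.3 and 52.9 FPKM. Of 16 log2 differences 14 were positive, 13 under median-ratio and 11 under upper-quartile scaling, while 42.0% of all tested genes were negative. The median of the 16 was 0.11, beside 0.05 over all tested genes and 0.03 over those with a mean of 1 to 10 FPKM. MARS2, the mitochondrial methionyl enzyme, had the highest, at 2.68 and 3.15 FPKM in shWDR43 and 1.83 and 2.09 FPKM in shNC, a log2 difference of 0.40 ± 0.13 (adjusted p = 0.0993, limma). Its ratio of mean FPKM was 1.49, and its log2 difference with a pseudocount of 0.1 was 0.55 (adjusted p = 0.101), since the added 1 weighs more on low genes. LARS2, the leucyl enzyme, was at 4.67 and 4.68 against 3.07 and 3.99 FPKM, with its log2 value higher by 0.33 (adjusted p = 0.149, limma), with 0.48 (adjusted p = 0.0231) without shNC replicate 2 and 0.19 (adjusted p = 0.272) without shNC replicate 1. PARS2, for proline, was at 2.26 and 2.40 FPKM in shWDR43 and at 1.89 and 1.47 FPKM in shNC, and NARS2, for asparagine, at 6.62 and 8.06 against 5.91 and 5.74 FPKM. Their log2 differences were 0.32 and 0.28, and the groups of LARS2, MARS2, NARS2 and PARS2 did not overlap, as in 35.8% of all tested genes on the higher side. IARS2, the most abundant of the 16, was at 50.2 and 52.4 FPKM in shWDR43 and at 44.1 and 46.9 FPKM in shNC, groups that did not overlap, with a log2 difference of 0.17 (adjusted p = 0.227, limma). The groups overlapped in RARS2, VARS2 and WARS2 and did not in EARS2, which was at 9.06 and 9.25 FPKM in shWDR43 and at 8.69 and 8.19 FPKM in shNC. VARS2 shares 1858 of its 8448 exonic bases with GTF2H4 on the same strand. The lowest difference was that of TARS2, at 8.64 and 8.999 FPKM in shWDR43 and 9.05 and 9.45 FPKM in shNC, a log2 difference of -0.06.

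The partners of the other genes that changed lay within 0.19 of 0 on the log2 scale. AARS2 was at 2.63 and 2.62 FPKM in shWDR43 and at 2.83 and 2.29 FPKM in shNC, groups that overlapped. CARS2 was at 16.3 and 16.1 against 14.9 and 15.1 FPKM, groups that did not overlap, with a log2 difference of 0.11 (adjusted p = 0.445, limma). SARS2 was at 12.1 and 9.96 FPKM in shWDR43 and at 10.4 and 10.2 FPKM in shNC, and YARS2 at 4.48 and 4.50 against 3.56 and 4.69 FPKM, both with overlapping groups. FARS2, the mitochondrial phenylalanyl enzyme, which is a single chain, was at 2.78 and 2.15 FPKM in shWDR43 and 2.08 and 1.99 FPKM in shNC, a log2 difference of 0.19 (adjusted p = 0.421, limma). The 95% intervals of the 7 cytosolic genes that fell ended at or below -0.30 (MARS1), and those of the 16 mitochondrial genes began at or above -0.27 (TARS2). No mitochondrial interval thus reached into those of the genes that fell, but these 7 were picked because they passed the test. The intervals of the 11 cytosolic genes not called ran from -0.44 (LARS1) to 0.50 (VARS1) and overlapped the mitochondrial ones. At the low levels of the mitochondrial genes the log2(FPKM + 1) scale also understates changes.

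Cytosolic and mitochondrial changes were then set against each other within each library. The median cytosolic minus the median mitochondrial level on the log2(FPKM + 1) scale was 2.69 and 2.62 in shWDR43 and 3.17 and 3.18 in shNC, groups that did not overlap and differed by more than the libraries within each. With means in place of medians the groups lay closer, at 2.32 and 2.31 in shWDR43 and 2.63 and 2.71 in shNC. Changes were also taken gene by gene. Over the 19 and 16 genes, the median log2 change was -0.11 for cytosolic and 0.11 for mitochondrial members, a difference of -0.22. In the 4 combinations of a shWDR43 with a shNC library this difference ran from -0.32 to -0.10. Within groups it was -0.00049 between the shWDR43 libraries and -0.12 between the shNC libraries. The value between the shNC libraries was thus larger in size than the smallest of the 4 between groups. Without shNC replicate 2 the difference of the median changes was -0.12 and the cytosolic median -0.03, so the size of both depends on that library. The summed cytosolic level was 5.01 and 4.92 times the summed mitochondrial level in shWDR43 and 6.40 and 6.79 times in shNC. The smallest p that an exact permutation test allows for 2 against 2 libraries is 0.33, and no p is given for these medians over chosen genes.

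**Figure D3:**
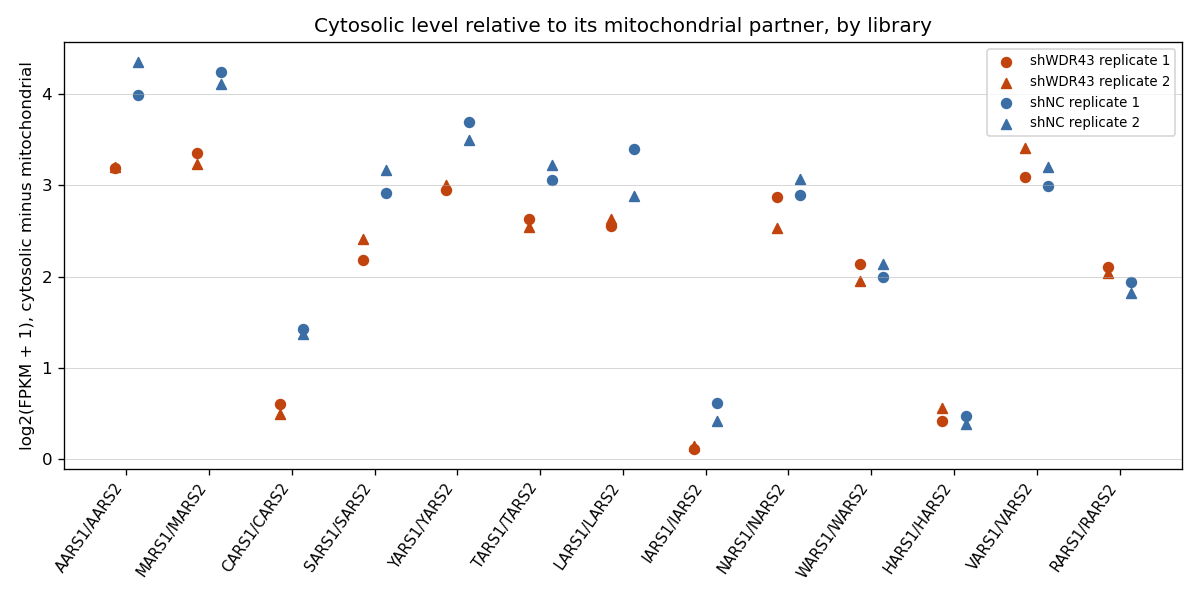
Level of the cytosolic gene minus that of its mitochondrial partner on the log2(FPKM + 1) scale (y axis) in each library, for the 13 amino acids with 1 gene per compartment, ordered from the lowest to the highest change. Orange points are shWDR43 and blue points shNC libraries, circles replicate 1 and triangles replicate 2. In 9 pairs both orange points lie below both blue ones, and in RARS1/RARS2 above.

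By amino acid, 13 had a single gene in each compartment, which allows partners to be compared within a library. The cytosolic gene had the lower change in 10 of these 13 pairs, and in 9 the shWDR43 libraries lay below both shNC libraries. Among single tested genes 21.5% lay this way, but no such share was taken for ratios of 2 genes. These pairs include AARS1, CARS1, MARS1, SARS1, TARS1 and YARS1, which had already been called as lower. The ratio of AARS1 to AARS2 was 12.2 and 12.4 in shWDR43 and 21.1 and 28.9 in shNC, a shift of -0.97 on the log2(FPKM + 1) scale and of -1.01 for the ratio itself. That of MARS1 to MARS2 was 13.7 and 12.04 against 28.7 and 25.0, a shift of -0.88 on the log2(FPKM + 1) scale, of which 0.40 lay in MARS2, and of -1.06 for the ratio itself. The order of these pairs thus turned with the added 1. CARS1 to CARS2 was 1.55 and 1.43 against 2.81 and 2.70, SARS1 to SARS2 4.84 and 5.75 against 8.18 and 9.75, and YARS1 to YARS2 9.21 and 9.61 against 16.3 and 13.4. TARS1 to TARS2, LARS1 to LARS2, IARS1 to IARS2 and NARS1 to NARS2 had shifts of -0.55, -0.54, -0.39 and -0.28 on the log2(FPKM + 1) scale. The last shift lay in NARS2, with log2 differences of 0.006 for NARS1 and 0.28 for NARS2. RARS1 to RARS2 was higher, at 4.55 and 4.31 in shWDR43 and 4.04 and 3.71 in shNC, and the groups overlapped for histidine, valine and tryptophan. Each of the 10 separated pairs had p = 0.33 (exact permutation test, two-sided), the smallest that 4 libraries allow.

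Phenylalanine, glutamate and proline have no such simple pair of genes. Relative to FARS2, FARSB was higher in shWDR43 (3.83 and 4.97) than in shNC (3.18 and 3.67), while FARSA overlapped (8.94 and 11.2 against 10.5 and 12.3). EPRS1 relative to EARS2 was 6.14 and 6.23 in shWDR43 and 6.64 and 7.94 in shNC. Relative to PARS2 it was 24.6 and 24.0 in shWDR43 and 30.5 and 44.2 in shNC. On the log2(FPKM + 1) scale the shifts were -0.22 and -0.43. PARS2, the least abundant mitochondrial member, had a log2 difference of 0.32. EPRS1 itself was at 55.7 and 57.6 FPKM in shWDR43 and 57.7 and 65.0 FPKM in shNC, with a log2 difference of -0.11 (adjusted p = 0.466, limma).

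Among 22 other genes that act on tRNA or carry it to the ribosome, 1 fell and 1 rose, with a median log2 change of 0.09. That is 4.55% on each side, beside 1.47% of all tested genes that fell and 4.79% that rose. XPOT, which encodes the nuclear export receptor for tRNA, fell to 21.4 and 21.2 FPKM in shWDR43, against 28.6 and 28.95 FPKM in shNC, a log2 change of -0.42 ± 0.08 (adjusted p = 0.0318, limma), and lost its call without shWDR43 replicate 1 or 2 (adjusted p = 0.145 and 0.146). ELAC2, the gene of the nuclease that trims the 3′ end of tRNA precursors, rose to 17.3 and 16.3 FPKM, against 12.1 and 12.9 FPKM in shNC, a log2 change of 0.40 ± 0.09 (adjusted p = 0.0439, limma). The ELAC2 call was lost without shWDR43 replicate 1 or 2 (adjusted p = 0.289 and 0.129) and under median-ratio and upper-quartile scaling (0.0649 and 0.0855). The elongation factor genes that deliver charged tRNA, EEF1A1 in the cytosol and TUFM in mitochondria, did not pass, with log2 differences of -0.24 (adjusted p = 0.255, limma) and 0.29 (adjusted p = 0.1005, limma). GATB, GATC and QRSL1, the genes of the amidotransferase that makes mitochondrial glutaminyl-tRNA in place of a synthetase, had log2 differences of 0.16, 0.09 and -0.02.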

How the data were processed

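RNA-seq of 4 HCT116 libraries was used as 4 tables, each with 1 value per Ensembl gene. The values the authors deposited were read as FPKM from their sums, and TPM over part of the genes cannot be told apart from it. The submitters' processing notes name HISAT2, RSEM, edgeR, Trimmomatic, FastQC, CASAVA 1.8 and the GRCh38 genome, with no role or order. A blank entry per file was left out.

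A name table matched 29170 of 29286 identifiers, and positions came from GENCODE release 29. Genes that reached 1 FPKM in 2 libraries or more entered limma 3.58.1 (R 4.3.3) as log2(FPKM + 1). Group was the only term, with trend and robust moderation and a two-sided test, adjusted by Benjamini-Hochberg over 13303 genes. The fit was also run on data simulated from its own variance model, which cannot show how well that model suits these libraries. The log2(FPKM + 1) scale understates changes of low genes. Alternatives were a pseudocount of 0.1, no filter, median-ratio or upper-quartile scaling, moderation without robust settings, leaving out each library, and the replicate number as a block.

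Named were the members that passed, with their partners, the scaffold genes and members next to the threshold, and related genes that passed, while EEF1A1, TUFM, GATB, GATC, QRSL1 and the genes whose exons or starts touch a member were added after their values were seen. A gene of the related list is not reported here, and counts over that list leave it out. Members and lists were chosen with earlier results of these data known. Tables and figures used Python 3.11.15, pandas 2.3.3 and matplotlib 3.10.9.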

Additional observations from a re-analysis of the deposited data

How the results depend on the processing

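The number of cytosolic synthetases that fell was 7 with the 0.1 pseudocount and with robust settings off, 6 under median-ratio scaling, upper-quartile scaling and the replicate block, each time without GARS1, and 5 to 8 when a library was left out. AARS1, CARS1, SARS1 and TARS1 passed with any library left out. Without the filter on low values 0 cytosolic synthetases fell and 0 rose with limma, against 8 and 4 at an unadjusted p below 0.05, and of 26938 genes 15 rose and 2 fell. The number that rose ran from 0 to 3 over the leave-one-out fits, and that of mitochondrial synthetases that rose from 0 to 1. The cytosolic minus mitochondrial median change ran from -0.28 to -0.12. No label ties the replicate numbers to a shared culture or day. The deviations of libraries with the same number were only weakly and negatively correlated (-0.147 over 13303 genes). The replicate block also ended the calls of XPOT (adjusted p = 0.0569, limma) and ELAC2 (adjusted p = 0.0736). With the crossed block, chosen after seeing the data, 7 cytosolic synthetases fell and 3 rose.

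Over all genes 637 rose and 196 fell, against 413 and 150 with the replicate block, 310 and 140 under median-ratio scaling, 194 and 182 under upper-quartile scaling, 245 and 132 or 310 and 137 without shWDR43 replicate 1 or 2, and 1229 and 533 or 1802 and 784 without shNC replicate 1 or 2. Small differences that never passed turned sign. Under median-ratio scaling NARS1 was at -0.017 and WARS2 at -0.0027. Under upper-quartile scaling HARS1 was at -0.0071, NARS1 at -0.064, AARS2 at -0.021, RARS2 at -0.038, WARS2 at -0.040 and AIMP1 at -0.044. With a library left out, AARS2 ran from -0.078 to 0.14, AIMP1 from -0.10 to 0.14, EEF1E1 from -0.15 to 0.14, FARSA from -0.0049 to 0.15, HARS2 from -0.016 to 0.016, NARS1 from -0.062 to 0.074, RARS2 from -0.038 to 0.095, SARS2 from -0.044 to 0.22, WARS2 from -0.081 to 0.11 and YARS2 from -0.052 to 0.27. Where only 1 library of a group was left, it was taken to vary as much as the other group does. Depth is unknown, so no counting error could be set beside these values.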
